A study of Mus musculus with 16 samples.

Results

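Transcripts of intraepithelial lymphocytes and mast cells were followed in sorted intestinal epithelium. The genes were taken by symbol from the deposited read counts of the distal colon (DC) and of section 8 of the small intestine (Si8): Cd3e, Cd3g, Cd8a, Gzma, Gzmb, Itgae and Ccl5 for lymphocytes, and Mcpt1, Mcpt2 and Cpa3 for mast cells. All 10 of these 10 genes were found among 46882 listed genes, and all 10 passed the filter on low counts that left 16001 genes to test. The filter was taken over all 16 libraries, so a gene could pass through the Si8 other cells alone.

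The cells came from RedMUC298trTg mice aged 6 to 8 weeks, a line whose mCherry-tagged MUC2 reporter marks goblet cells. Every group shares this transgene. Viable mCherry-positive cells (goblet sort) and viable mCherry-negative cells (other sort) were collected from each region, which gave 4 groups of 4 libraries: DC other, DC goblet, Si8 other and Si8 goblet. The labels call the mCherry-negative cells colonocytes in DC and enterocytes in Si8, but the sorting protocol names only a viability dye and mCherry, with no antibody gate for leukocytes or for epithelium. Goblet and other cells also went through different RNA columns, so column and sort cannot be told apart. Libraries are named by the S number of their label, which pairs no samples, and nothing in the labels says which libraries are separate animals.

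Intraepithelial lymphocytes are mostly CD8-bearing T cells that sit between epithelial cells above the basement membrane, more densely in the small intestine than in the colon. They carry the CD3 complex, store granzymes, and are held to epithelial E-cadherin by the integrin chain that Itgae encodes. Mucosal mast cells also enter the epithelium and store chymase-type proteases with carboxypeptidase A in their granules.

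Mcpt1 and Mcpt2 encode chymase-type proteases of mucosal mast cells, and their coding sequences were compared because reads of paralogs can be hard to assign. Mcpt1 lies at chr14:56017971-56020384 and Mcpt2 at chr14:56042041-56044642, both on the plus strand and 21.7 kb apart (GRCm38, which is mm10, GENCODE M21). The coding sequences of 738 and 732 bases were 81.0% identical, with 123 mismatches. The 120 coding bases in which they were most alike, positions 1 to 120, differed at 4 bases, shown in capitals:
Mcpt1: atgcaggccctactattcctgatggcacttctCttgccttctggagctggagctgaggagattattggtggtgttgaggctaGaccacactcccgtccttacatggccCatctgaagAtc
Mcpt2: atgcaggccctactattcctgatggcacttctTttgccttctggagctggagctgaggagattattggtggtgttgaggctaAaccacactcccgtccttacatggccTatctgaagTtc
The 120 bases in which they differed most, coding positions 462 to 581, held 31 mismatches, again in capitals:
Mcpt1: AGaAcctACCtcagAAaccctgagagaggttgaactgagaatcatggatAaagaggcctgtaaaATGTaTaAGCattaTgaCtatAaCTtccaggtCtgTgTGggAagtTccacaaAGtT
Mcpt2: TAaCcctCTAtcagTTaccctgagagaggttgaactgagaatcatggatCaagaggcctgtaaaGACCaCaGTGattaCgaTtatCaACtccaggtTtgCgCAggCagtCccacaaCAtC
The longest run that both transcripts shared was 49 bases. No window of 50, 75 or 100 bases of either transcript occurred elsewhere among the annotated transcripts. Of windows of 35 bases, 4.59% of Mcpt1 and 3.70% of Mcpt2 did, in each other or in other genes and a pseudogene of the protease family. For Gzmb the share was 1.07%, with Gzmc, and for Cd8a 0.582%. Error-free reads of 50 bases within a transcript would thus differ between Mcpt1 and Mcpt2, but the read length and the handling of multi-mapped reads were not given in the sources used here. The summed count of both genes is given beside the single values below.

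Total counts ranged from 14.9 to 17.7 M per library in DC other, 11.9 to 18.5 M in DC goblet, 30.8 to 41.1 M in Si8 other and 37.4 to 40.5 M in Si8 goblet. Levels are CPM on TMM-scaled library totals, given as mean ± SD with n = 4 libraries. The epithelial genes Epcam and Krt8 averaged at least 1262 and 2369 CPM in every group. Muc2 reached 10030.0 ± 576 CPM in DC goblet and 39440.0 ± 17350.0 in Si8 goblet, against 40.0 ± 6.71 and 54.1 ± 26.9 in the other sorts. Genes encoded in mitochondrial DNA took 3.19 to 8.36% of the counts in Si8 and 0% in DC, so the tables of the regions differ, and a comparison of regions includes whatever else differs between them. In bulk samples such as these, fewer cells of a type and less RNA per cell cannot be told apart.

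Si8 other was the group in which every one of the 10 transcripts stood highest. Per kb of transcript, which allows genes to be compared, Gzma, a granule serine protease, led with 153 ± 26.4 CPM per kb, followed by Mcpt1 with 83.4 ± 51.3. Ccl5, a chemokine that activated T cells secrete, and Gzmb, the granzyme that cleaves after aspartate, came next at 40.7 ± 7.51 and 39.4 ± 13.6, and Mcpt2 followed at 28.3 ± 17.7. Cd3g, Itgae and Cd8a were lower, at 9.27 ± 0.900, 6.93 ± 0.456 and 4.99 ± 0.496 CPM per kb. Cpa3, mast cell carboxypeptidase A, and Cd3e, an invariant CD3 chain, closed the order at 2.24 ± 1.5 and 1.61 ± 0.0266. Gzma and Mcpt1, Mcpt1 and Ccl5, Ccl5 and Gzmb, Gzmb and Mcpt2, and Cpa3 and Cd3e were neighbours whose mean ± SD ranges overlapped.

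**Figure D1:**
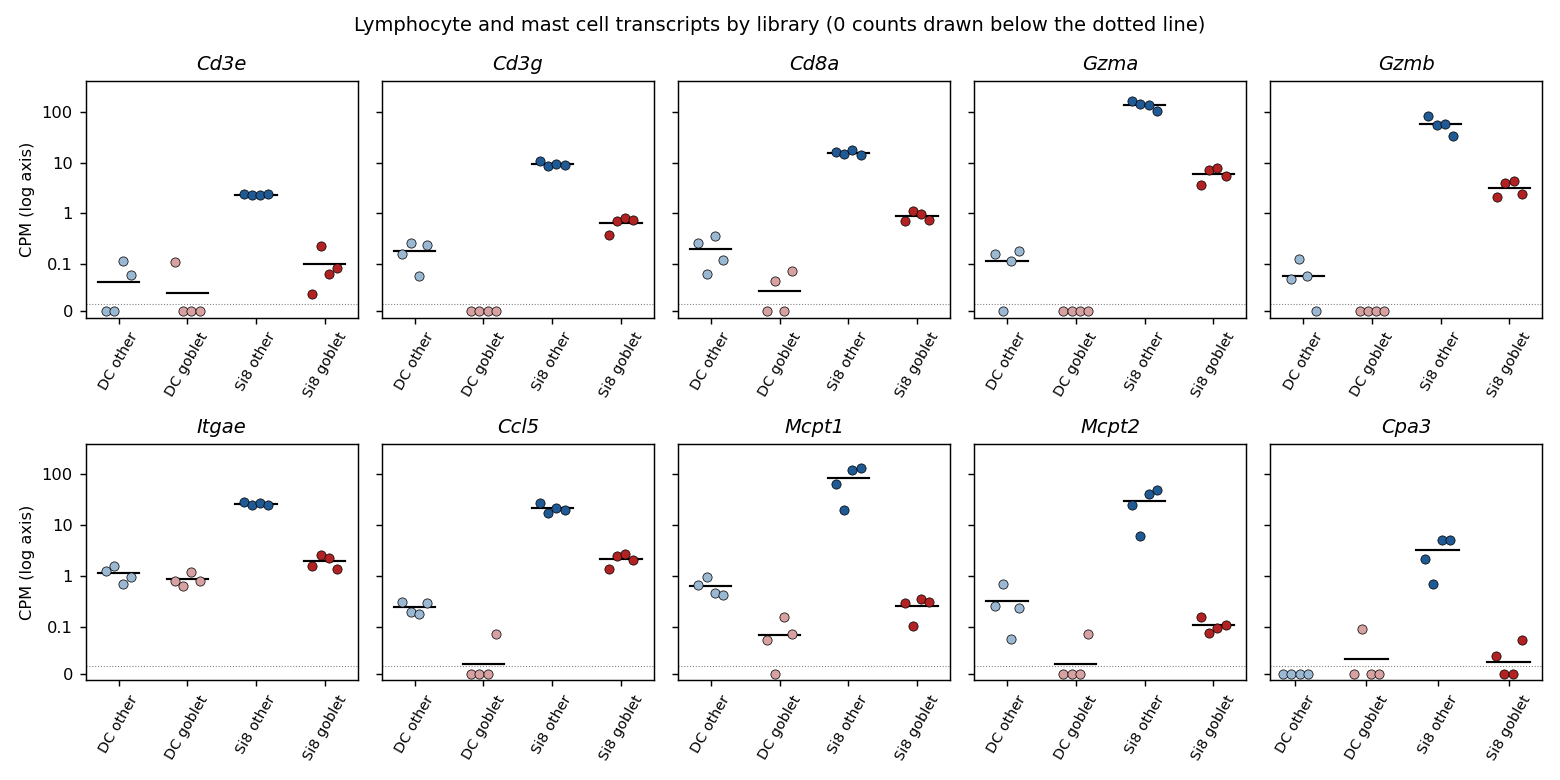
Each panel plots 1 transcript in CPM on a log axis for the 4 libraries of each group (points) with the group mean (bar); libraries with 0 counts are drawn below the dotted line. All 10 transcripts are highest in Si8 other, and in DC they lie near or at 0 except Itgae, which averages 1.1 CPM in DC other and 0.870 in DC goblet.

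In Si8, the goblet sort held less of all 10 transcripts than the other sort. The CD3 complex, CD8 and the granzymes were left at 4.30 to 6.97% of their level in the other sort, Itgae at 7.39% and Ccl5 at 10.0%. The mast cell transcripts were left at 0.312% for Mcpt1, 0.370% for Mcpt2 and 0.636% for Cpa3. edgeR's quasi-likelihood test with Benjamini-Hochberg adjustment over 16001 genes called all 10 lower at an adjusted p under 0.05. No library of one sort overlapped the other for any of them, but the share of all tested genes without overlap is not given here. In this comparison 31.8% of all tested genes were called lower and 33.1% higher. The median log2 fold change was −4.30 over the 10 transcripts and 0.03 over all genes tested.

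Among the T cell receptor components, Cd3e (chr9:44998740-45009627, minus strand) gave 2.37, 2.34, 2.31 and 2.4 CPM in Si8 other libraries S1, S3, S5 and S7. In Si8 goblet libraries S2, S4, S6 and S8 it gave 0.0267, 0.231, 0.0639 and 0.0837 CPM. The 4 other-sort libraries were nearly level, while S4 stood above the remaining goblet libraries, and Cd3e fell by 4.44 ± 0.39 (SE) on the log2 scale, 21.7-fold (adjusted p = 8.6e-09). An antisense gene, Gm48719, shares 135 exonic bases with Cd3e. The strand setting of the counting is not given in the sources used here, so the part of reads from the antisense gene was not tested. Cd3g (chr9:44969572-44980431), which encodes another CD3 chain and lies 18.3 kb from Cd3e, gave 10.8, 8.70, 9.46 and 9.01 CPM in Si8 other against 0.374, 0.717, 0.798 and 0.753 in Si8 goblet. Library S2 was the lowest of the goblet libraries, and the fall was 14.3-fold (log2 −3.84 ± 0.21, adjusted p = 1.3e-10).

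Cd8a (chr6:71373427-71379173, plus strand), the CD8 coreceptor chain, gave 16.3, 15, 17.4 and 13.8 CPM in Si8 other S1, S3, S5 and S7. In Si8 goblet S2, S4, S6 and S8 it gave 0.695, 1.10, 0.958 and 0.753. The sorts were far apart in every library, with a 17.7-fold fall (log2 −4.15 ± 0.19, adjusted p = 9.1e-13). Itgae (chr11:73090583-73147446, plus strand), the alpha E integrin chain of resident lymphocytes, gave 28.9, 25.4, 27.2 and 25.1 CPM in Si8 other and 1.55, 2.64, 2.30 and 1.40 in Si8 goblet, a 13.5-fold fall (adjusted p = 2.1e-12). Ccl5 (chr11:83525778-83530518, minus strand) gave 27.0, 17.6, 22 and 20.1 CPM against 1.39, 2.49, 2.78 and 2.04. Its fall of 9.98-fold (log2 −3.32 ± 0.19, adjusted p = 1.5e-11) was the smallest among the 10 transcripts, and S2 was again the lowest goblet library.

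Gzma (chr13:113093825-113100981, minus strand) gave 159.7, 141, 134 and 104 CPM in Si8 other S1, S3, S5 and S7, and 3.66, 7.25, 7.92 and 5.41 in Si8 goblet S2, S4, S6 and S8. S1 was the highest and S7 the lowest other-sort library, and S2 the lowest goblet library, with a 22.2-fold fall (log2 −4.47 ± 0.22, adjusted p = 4.4e-10). Gzmb (chr14:56258838-56262260, minus strand), 214.2 kb beyond Mcpt2, gave 81.0, 56.0, 56.1 and 33.1 CPM against 2.09, 3.92, 4.28 and 2.4. The spread of Gzmb over the other-sort libraries, 2.45-fold from S7 to S1, was the widest of the lymphocyte transcripts, and its fall was 17.9-fold (log2 −4.16 ± 0.29, adjusted p = 2.5e-08).

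The mast cell transcripts were far less even over the Si8 other libraries. Mcpt1 gave 65.8, 19.8, 120.7 and 132 CPM in S1, S3, S5 and S7, and 0.294, 0.103, 0.351 and 0.307 in Si8 goblet S2, S4, S6 and S8. S3 was lowest in the other sort and S4 in the goblet sort, and even S3 lay far above every goblet library. The fall was 321-fold (log2 −8.33 ± 0.65, adjusted p = 6.2e-08), and 1 of the 16001 tested genes had a lower log2 fold change. Mcpt2 gave 24.6, 6.16, 40.9 and 48.4 CPM against 0.160, 0.0768, 0.0958 and 0.112, a 258-fold fall (log2 −8.01 ± 0.71, adjusted p = 1.8e-07). With both counts summed, the fall was 306-fold (log2 −8.26 ± 0.65, adjusted p = 7.5e-08). Cpa3 (chr3:20215620-20242181, minus strand) gave 2.16, 0.704, 5.07 and 5.06 CPM in Si8 other and had 1, 0, 0 and 2 counts in Si8 goblet S2, S4, S6 and S8. Its count ratio was 148 with a 95% exact counting interval of 50.2 to 720.0, which covers counting error only (adjusted p = 8.6e-06).

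**Figure D2:**
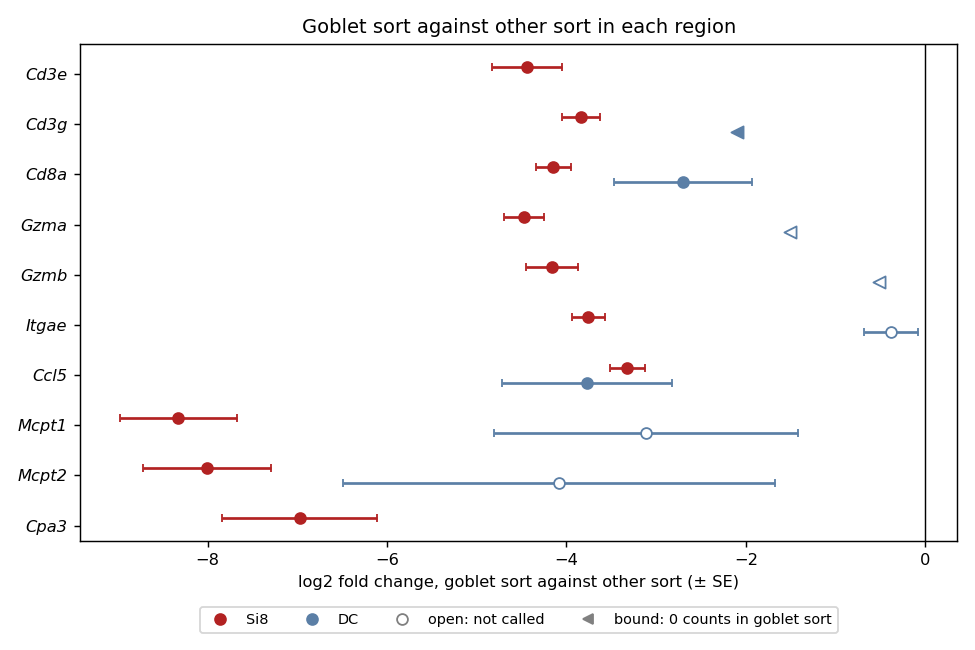
Log2 fold change of the goblet sort against the other sort for each transcript in Si8 (red) and DC (blue), with the SE as bars; filled points passed the adjusted p of 0.05, and triangles mark bounds where the goblet sort had 0 counts. The 3 mast cell transcripts lie between −8.33 and −6.97 in Si8, where Cpa3 rests on 3 goblet counts, and the 7 lymphocyte transcripts between −4.47 and −3.32.

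Summed CPM show the same gap between the cell types. The 7 lymphocyte transcripts summed to 267 ± 48.4 CPM in Si8 other and 15 ± 4.47 in Si8 goblet, which left 5.63% (single goblet libraries 3.67 to 7.16%). The 3 mast cell transcripts summed to 118 ± 72.9 and 0.396 ± 0.145 CPM, which left 0.335% (0.152 to 0.408%). Within a library, counts of Mcpt1 over Gzma ran from 0.141 to 1.27 in Si8 other and from 0.0141 to 0.0803 in Si8 goblet. The highest goblet ratio, in S2, thus lay below the lowest other-sort ratio, in S3, and these ratios are given as a description with no test.

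Mcpt1, Mcpt2 and Cpa3 moved together over the Si8 other libraries. Counts of Mcpt1 over Mcpt2 were 2.68, 3.21, 2.95 and 2.73 in S1, S3, S5 and S7, while Mcpt1 itself spanned 6.67-fold, Mcpt2 7.87-fold and Cpa3 7.20-fold. All 3 were lowest in S3. Of 15 further mast cell genes with at least 20 counts in these libraries, 13 were also lowest in S3, against 30.2% of 15341 tested genes with as many counts. The other 2, Fcer1g and Hdc, were lowest in S7, and Hdc was highest in S3. The 13 include the IgE receptor subunits Fcer1a (0.487, 0.126, 1.82 and 1.59 CPM) and Ms4a2 (0.800, 0.277, 1.72 and 2.17 CPM), and the protease genes Mcpt4, Mcpt9 and Cma2, which spanned 5.48- to 6.77-fold. The rest of the 13 varied less. Gata2, Slc18a2 and Il1rl1 spanned 2.84- to 3.37-fold, and Ltc4s, Kit, Hpgds, Mitf and Alox5 only 1.37- to 1.69-fold.

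Lymphocyte transcripts did not follow that order. S1 was highest for 5 of the 7 and S7 lowest for 4, S3 was lowest for 2 (Cd3g and Ccl5), and Cd3e spanned only 1.04-fold. Of the 24 genes of the T cell receptor list, 15 were lowest in S7 and 2 in S3. Other genes were low in S3 as well: all 6 goblet genes, led by Muc2 with 51.7, 25, 90.1 and 49.5 CPM in S1, S3, S5 and S7, and 3 of 4 stromal genes. Among the epithelial identity genes, Vil1 (1.62-fold) and Epcam (1.25-fold) were lowest in S3 and highest in S7, and Krt8 and Krt18 were lowest in S1. Of the epithelial partner genes named below, Btnl6, Cdh1, Cxadr and Ccl25 were lowest in S3 and highest in S7. They spanned 1.17- to 1.49-fold, and Il15 was lowest in S1. The part of all these genes in the low mast cell levels of S3 was not tested. The stromal genes Col3a1 and Col1a2 averaged 0.315 and 0.163 CPM in this group.

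**Figure D3:**
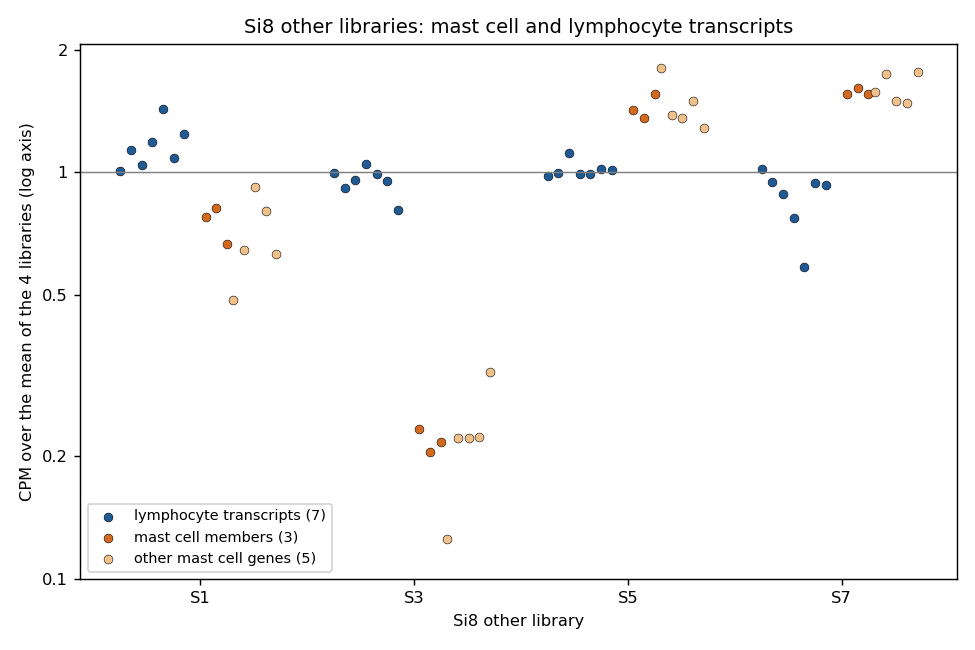
CPM of each gene in Si8 other libraries S1, S3, S5 and S7, divided by the mean of the 4 libraries, on a log axis. The 3 mast cell members and the 5 other mast cell genes plotted (Fcer1a, Ms4a2, Mcpt4, Mcpt9 and Cma2) lie lowest in S3 and highest in S5 or S7, with Mcpt1 spanning 6.67-fold, whereas the 7 lymphocyte transcripts span 1.04- to 2.45-fold.

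In DC these transcripts were scarce in both sorts. Summed over the 4 DC other libraries, Cd3e had 3 counts, Gzmb 4, Gzma 8, Cd3g 12, Cd8a 14, Ccl5 17, Mcpt2 21, Mcpt1 43 and Itgae 77, and Cpa3 had 0. In DC goblet, Cd3g, Gzma and Gzmb had 0 counts, Ccl5 and Mcpt2 1, Cd3e, Cd8a and Cpa3 2, Mcpt1 5 and Itgae 63. A group total of 3 counts, the floor set for fold changes, corresponded to 0.0442 CPM in DC other and 0.0413 in DC goblet. Levels at or under this floor rest on very few counts.

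edgeR called 3 of the 10 lower in DC goblet, Cd3g, Cd8a and Ccl5, where 27.9% of all tested genes were called lower and 27.8% higher. The count of 3 of 10 lies near the share over all genes. These 3 passed the filter on low counts through the Si8 libraries. A fit of the DC libraries alone, with its own filter, removed them, left only Itgae to test and called 0, also 0 at an unadjusted p under 0.05. Cd3g had 3, 4, 1 and 4 counts in DC other S10, S12, S14 and S17 and was at least 4.28-fold lower in DC goblet, measured against 3 counts over the group (adjusted p = 9.8e-04). Cd8a had a count ratio of 7.49 (95% exact counting interval 1.72 to 67.9, adjusted p = 0.0056), although the libraries of the sorts overlapped. Ccl5 had 6, 3, 3 and 5 counts against 0, 0, 0 and 1 in S9, S11, S13 and S18, without overlap, and a count ratio of 18.2 (2.85 to 760.1, adjusted p = 0.0022). With DESeq2's Wald test the number called was 6, with Gzma, Mcpt1 and Mcpt2 added, and it was also 6 in an edgeR fit of the DC libraries alone with no filter, an alternative chosen after seeing the data. The share of all genes that either alternative called is not given here.

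Mcpt1 and Mcpt2 in DC did not pass the edgeR test over 4 groups. Mcpt1 gave 0.683, 0.971, 0.475 and 0.423 CPM in DC other S10, S12, S14 and S17 and 0.0547, 0, 0.157 and 0.0735 in DC goblet S9, S11, S13 and S18. The sorts did not overlap, and its fitted log2 fold change was −3.12 ± 1.69 (adjusted p = 0.14). Mcpt2 had 5, 11, 1 and 4 counts against 0, 0, 0 and 1, with S12 the highest DC library for both proteases (log2 −4.08 ± 2.41, adjusted p = 0.17). For the summed count the log2 fold change was −3.44 ± 1.59 (adjusted p = 0.082). Gzma and Gzmb, at 0 counts in DC goblet, were at least 2.85-fold and 1.43-fold lower there but did not pass (adjusted p = 0.083 and 0.30). Over the 8 transcripts with a fold change, the median log2 fold change was −2.50 with 0-count groups at their bound and −3.75 as fitted, against 0.03 over all genes. Cd3e and Cpa3, at or under 3 counts in both sorts, are given no fold change.

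Itgae was the only one of the 10 with more than 5 counts in the DC goblet group. It gave 1.26, 1.62, 0.713 and 0.967 CPM in DC other S10, S12, S14 and S17 and 0.821, 0.648, 1.2 and 0.809 in DC goblet S9, S11, S13 and S18. The sorts overlapped, and Itgae did not pass the test in DC (log2 −0.38 ± 0.30, adjusted p = 0.29). Its goblet effect differed between the regions, by −3.37 ± 0.36 on the log2 scale for Si8 minus DC (edgeR interaction, adjusted p = 6.2e-07, −3.56 to −3.16 over 22 alternatives). It was the only one of the 10 called in that test, which called 15.6% of all genes in the same direction; for the other 9, with few or no DC counts, the adjusted p lay between 0.11 and 0.82. The gene Haspin (listed as Gsg2) lies within an intron of Itgae on the opposite strand and shares 0 exonic bases with it. Gsg2 averaged 8.70 and 9.18 CPM in DC other and DC goblet and 10.2 and 14.7 CPM in the Si8 sorts; whether its reads reached Itgae was not tested. Lck, the kinase that starts T cell receptor signalling, had a like pattern, with 2.29 ± 0.484 and 2.24 ± 0.751 CPM in DC other and DC goblet and 8.18 ± 0.803 and 1.22 ± 0.137 in the Si8 sorts (interaction −2.69 ± 0.29, adjusted p = 6.7e-07).

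Between regions, all 10 transcripts were higher in Si8 other than in DC other, where 33.6% of all genes were called higher. Gzma was 1096-fold and Gzmb 886-fold higher (adjusted p = 1.0e-11 and 1.1e-09), Mcpt1 132-fold and Mcpt2 95.1-fold. Ccl5, Cd8a, Cd3g and Itgae were 84.9-, 74.1-, 52.1- and 23.4-fold higher. Cd3e had a count ratio of 53.2 (95% exact counting interval 18 to 259), and Cpa3 was at least 69.9-fold higher. No Si8 other library overlapped a DC other library for any of the 10, and the share of all tested genes without overlap is again not given here. The median was 6.31 with Cpa3 at its bound, against −0.001 over all genes tested.

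The goblet sorts differed between regions as well, for 6 of the 10, with 31.5% of all genes called higher in Si8 goblet. Gzma was at least 145-fold, Gzmb at least 76.0-fold and Cd3g at least 15.8-fold higher in Si8 goblet, Ccl5 had a count ratio of 156 and Cd8a of 31.9, and Itgae was 2.26-fold higher (adjusted p = 4.9e-04). Cd3e (adjusted p = 0.12), Mcpt1 (0.41) and Mcpt2 (0.42) did not pass, and Cpa3 had at most 3 counts in each group. Cd3e did pass without DC goblet S9 (log2 4.52, adjusted p = 0.021), the library that held both of its DC goblet counts. For Mcpt1 the order of the groups was Si8 other, DC other, Si8 goblet, DC goblet, and every DC other library (0.423 CPM or more) lay above every Si8 goblet library (0.351 or less).

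The wider lymphocyte lists fell in the Si8 goblet sort beside these transcripts, where 31.8% of all tested genes were lower and 33.1% higher. Of 22 tested genes of T cell receptor signalling, 22 were lower, with a median of −3.92, for example the phosphatase CD45 gene Ptprc (39.9 to 4.94 CPM), Lck and the receptor constant gene Trbc2 (6.45 to 0.318 CPM). Of 16 tested cytotoxic and NK receptor genes 14 were lower (median −3.75), led by the granule proteoglycan gene Srgn (11.5 to 0.715 CPM), Nkg7 and Cd96. The 2 that did not pass were Gzmm, at the same level in both sorts, and Cd244. Of 17 tested homing and residency genes 13 were lower and 1 higher (median −3.57). Rgs1, a brake on chemokine receptor signalling, went from 48.2 to 3.48 CPM, whereas the receptor gene Gpr55 was 1.53-fold higher in the goblet sort (12.2 to 18.7 CPM, adjusted p = 0.0010). Ahr and Itga1, at 16 and 18.9 CPM in Si8 other, were at 14.8 and 21.7 in Si8 goblet and did not pass.

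In DC the same lists had 6 of 22, 9 of 16 and 6 of 17 genes lower in the goblet sort, and 0, 0 and 2 higher. Of all tested genes 27.9% were lower there, so the counts of the T cell receptor and homing lists lie near the share over all genes. Genes of these lists, and of the lists below, could pass the filter on low counts through Si8 alone. Nkg7, Zap70 and Klrd1, for example, had 5, 13 and 15 counts in DC other and 0 in DC goblet. Rgs1 was 40.6-fold lower there, with 241 counts in DC other and 6 in DC goblet. Ptprc gave 5.43 ± 0.542 against 1.64 ± 0.209 CPM, without overlap, and was called lower in DC goblet (adjusted p = 2.8e-08).

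Epithelial partners of intraepithelial lymphocytes, a list of 15 genes, had 10 lower and none higher in Si8 goblet (median −0.86), and 12 lower and 2 higher in DC goblet (median −0.90). Over all tested genes the shares were 31.8% lower and 33.1% higher in Si8 goblet, and 27.9% and 27.8% in DC goblet. Btnl6, a butyrophilin-like gene of enterocytes, fell from 682 ± 128 to 167 ± 26.5 CPM in Si8 and from 125 ± 7.74 to 7.75 ± 0.404 in DC. Il15, the cytokine that sustains these lymphocytes, was at 25% of its other-sort level in Si8 goblet and at 19.9% in DC goblet. Cdh1, the E-cadherin that binds the Itgae product, averaged 1113 and 1047 CPM in the Si8 sorts and did not pass (adjusted p = 0.38), and the receptor gene Cxadr was at 74.8%. Ccl25, the chemokine that draws lymphocytes to the small intestine, stood at 28.8% in Si8 goblet.

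**Figure D4:**
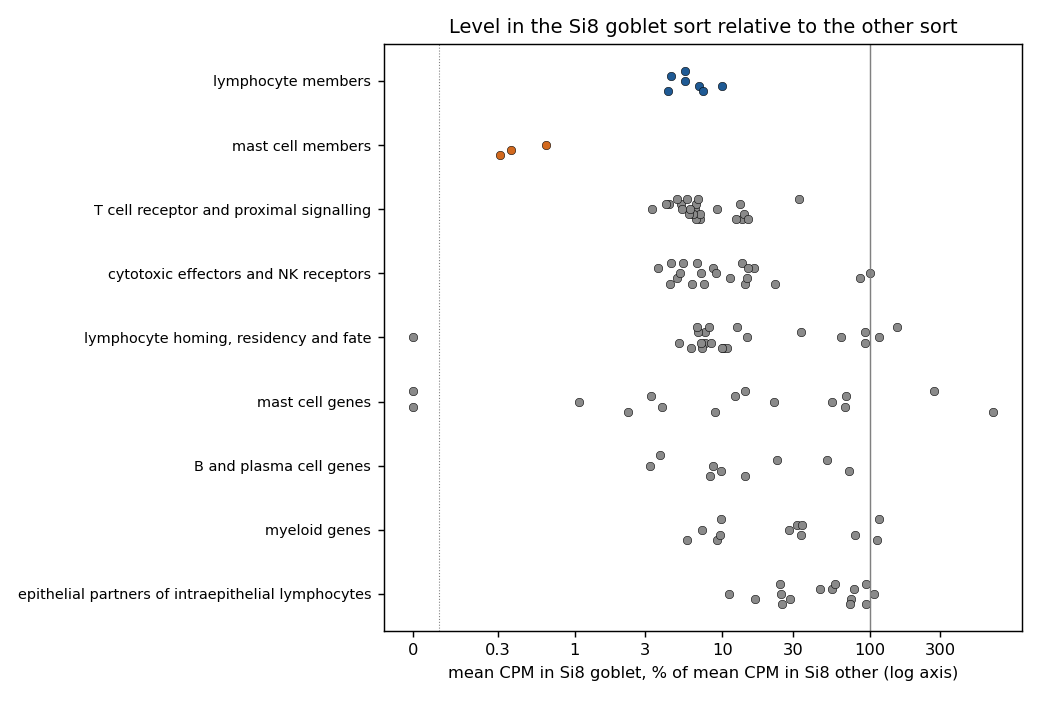
Mean CPM in Si8 goblet as a percentage of the mean in Si8 other, 1 point per gene with over 10 counts in Si8 other, on a log axis with 0 counts left of the dotted line. Mast cell members lie at 0.312 to 0.636%, lymphocyte members at 4.30 to 10.0%, and the longer lists spread up to and beyond the level of the other sort (100%).

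The longer mast cell list was mixed. Of its 20 genes 9 were tested, and in Si8 goblet 5 were lower and 2 higher (median −0.85), against 31.8% and 33.1% of all tested genes. The higher ones were Kit, the stem cell factor receptor, at 72.5 ± 8.64 against 10.6 ± 1.36 CPM, and the transcription factor gene Mitf (1.57 against 0.577 CPM). Hpgds, a prostaglandin synthase gene, was lower in Si8 goblet (1.59 against 2.34 CPM, adjusted p = 0.021). In DC 3 of the 9 were higher in the goblet sort and 1 lower, against 27.8% and 27.9% of all tested genes. Kit was the most abundant gene of the list in both goblet sorts, and the summed level was higher there: 68.8 to 89.8 CPM per library against 20.4 to 34.8 in Si8, and 243 to 261 against 27.3 to 37.5 in DC. Kit made up most of the goblet sums, with a mean of 72.5 of 80.1 CPM in Si8 goblet and 231 of 250 in DC goblet. In the other sorts it gave 10.6 of 29.9 CPM in Si8 and 8.34 of 30.8 in DC. The list leaves out Mcpt1, Mcpt2 and Cpa3. Fcer1a had 0 counts in all 8 DC libraries, and Mcpt4 and Cma2 had 0 in Si8 goblet. Tpsb2 went the other way, with 77 counts in Si8 goblet and 4 in Si8 other, and 11 and 0 in DC goblet and DC other. In DC goblet Ms4a2, Cma2 and Gata2 had 5, 6 and 11 counts, against 0, 0 and 3 in DC other. In Si8 the same genes were lower in the goblet sort, with 2, 0 and 4 counts against 154, 117 and 110.

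Other cell types that the sorts could hold were read from marker lists. Basophil genes were at or near 0, with Mcpt8 at 17 counts in Si8 other and 0 elsewhere, Prss34 at 1 count in all, and Cd200r3 at most at 0.322 CPM on average. B and plasma cell genes had 3 of 5 tested lower in Si8 goblet and 3 of 5 in DC goblet, and 5 of 5 higher in Si8 other than in DC other. Over all tested genes these shares were 31.8%, 27.9% and 33.6%. Igha and Jchain, the heavy chain and joining chain of secreted IgA, were left at 3.22 and 3.76% in Si8 goblet, and Ighm at 9.75%. Summed over the 9 listed genes found, the Si8 other libraries ran from 143 to 366 CPM and the Si8 goblet libraries from 7.48 to 12.4.

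Myeloid genes had 7 of 10 lower in Si8 goblet and 8 of 10 in DC goblet with 1 higher. Of all tested genes 31.8% were lower in Si8 goblet and 33.1% higher, and 27.9% and 27.8% in DC goblet. Their summed level ran from 53.7 to 94.1 CPM in Si8 other and from 36.1 to 86.4 in Si8 goblet, and only goblet library S4 overlapped the other sort: without it the highest goblet library reached 47.2 CPM. S4 was highest for 9 of 9 myeloid genes with at least 20 counts in Si8 goblet. Itgam averaged 50.5 and 40.0 CPM in Si8 other and Si8 goblet, and Itgax 7.36 and 0.540. Lyz2 averaged 5.94 and 6.61 CPM, with 20.5 in S4. Stromal genes had 1 of 2 tested lower in Si8 goblet, Vim (19.9 to 2.98 CPM), and 2 of 2 in DC goblet. Of the innate lymphoid genes, Areg averaged 72.4 CPM in Si8 other and 52.0 in Si8 goblet and did not pass, and Gata3 averaged 0.289 CPM in Si8 other. Epithelial identity genes had 3 of 4 lower, Krt8, Vil1 and Epcam, and Krt18 higher in Si8 goblet, and the 6 goblet genes, among them Fcgbp and Clca1, were higher in both goblet sorts. The part of these cell types in the values of the 10 transcripts was not tested.

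Likeness was measured as Pearson r of log2(CPM + 0.5) over the 16 libraries among tested genes, as a description; the points share their regions and sorts. Cd5, a T cell coreceptor gene, was most like Cd3e (r = 0.992), followed by Spn (0.991), Trbc2 (0.989), Actn2 (0.988) and Tcrg-C4 (0.988). Cd5 had 0 counts in all 8 DC libraries and fell from 2.33 to 0.0773 CPM between the Si8 sorts. The genes most like Gzma were Mro (0.992), Erc2 (0.992), Card9, Tnfaip8l2 and C2 (each 0.991). Bcar1, Dopey1 and Ifitm1 (each 0.983), Gpx3 and Rab24 (each 0.982) were most like Mcpt2. Their levels differ widely: Bcar1 averaged 162 CPM in Si8 other and 54.9 to 65.9 elsewhere, Ifitm1 2.41 and at most 0.146.

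Upstream sequences are shown for 2 mast cell and 2 granzyme genes, each as the 250 bases before the start of the gene on its own strand, from RefSeq (GRCm38.p6). Capitals mark matches to AGATAA or TGATAA, the letters that GATA factors bind, and to TGTGGT, the letters that RUNX factors bind, searched on both strands so that ACCACA is a match to TGTGGT. Over 32851 promoters of this length, 10.0% held AGATAA, 7.9% TGATAA, 16.6% either and 14% TGTGGT. The mast cell gene Mcpt1 (chr14:56017714-56017963, plus strand) held TGATAA and TGTGGT:
Mcpt1: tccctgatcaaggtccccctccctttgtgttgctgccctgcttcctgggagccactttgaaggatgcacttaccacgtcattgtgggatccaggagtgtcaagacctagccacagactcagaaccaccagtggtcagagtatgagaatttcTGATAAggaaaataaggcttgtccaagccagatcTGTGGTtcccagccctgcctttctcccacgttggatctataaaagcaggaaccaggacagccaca
Cpa3 (chr3:20242182-20242431, minus strand) held AGATAA and TGTGGT:
Cpa3: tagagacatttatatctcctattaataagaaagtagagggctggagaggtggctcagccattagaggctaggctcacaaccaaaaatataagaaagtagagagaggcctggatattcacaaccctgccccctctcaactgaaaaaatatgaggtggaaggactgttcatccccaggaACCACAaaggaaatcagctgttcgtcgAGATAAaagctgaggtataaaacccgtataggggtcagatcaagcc
The granzyme genes Gzma (chr13:113100982-113101231, minus strand), with 1 match to TGTGGT, and Gzmb (chr14:56262335-56262584, minus strand), with 2, held neither GATA form:
Gzma: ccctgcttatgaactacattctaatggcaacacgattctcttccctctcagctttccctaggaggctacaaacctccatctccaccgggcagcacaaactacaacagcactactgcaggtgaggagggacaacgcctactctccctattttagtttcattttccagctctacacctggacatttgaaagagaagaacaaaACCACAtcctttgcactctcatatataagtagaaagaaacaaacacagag
Gzmb: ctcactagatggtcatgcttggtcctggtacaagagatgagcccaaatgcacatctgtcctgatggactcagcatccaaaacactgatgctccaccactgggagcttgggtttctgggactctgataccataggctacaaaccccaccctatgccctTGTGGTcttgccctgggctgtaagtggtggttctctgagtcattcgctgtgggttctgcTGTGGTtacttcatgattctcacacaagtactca
A match is a description of these letters only. Promoters were found for 7 of the 10 members, and among the 3 not shown Cd3g held AGATAA, while Cd3e and Cd8a held no match in this window.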

How the data were processed

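Bulk RNA libraries of sorted mouse intestinal epithelium were analysed, 4 in each of 4 groups taken from the labels. The authors deposited raw counts of reads per gene, 1 table per region. They also deposited a normalized signal of all 16 libraries, counts divided by size factors: multiplied back, 100% of 519072 values were whole within a tolerance of 0.001 and equal to the counts. Per the submitters' processing notes, FastQC 0.11.2, STAR 2.4.0f, HTSeq 0.6.1p1, DESeq2 1.14 and mm10 were used. Their parameters and the strand setting were not given in the sources used here. Per the labels' protocols, libraries were stranded total RNA without ribosomal RNA, read from both ends.

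The test was edgeR 4.0.16 (R 4.3.3): 1 robust quasi-likelihood fit over 4 groups after filterByExpr with TMM scaling (no covariate, 5 contrasts, Benjamini-Hochberg adjustment over 16001 genes, called under 0.05). Each SE divides the size of the log2 fold change by the root of its F statistic. The recovered reads gave 10383 calls for Si8 goblet against Si8 other and 8911 for DC, with all 10 members called in the first. Because these reads equal the counts, this fit is no separate check of the calls. Alternatives were DESeq2 size factors, DESeq2 1.42.0, no filter, fits of 2 groups, mitochondrially encoded genes left out, Mcpt1 and Mcpt2 summed, and each library left out. Folds against 0 counts use a floor of 3 counts over the group. Annotation was GENCODE M21.

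The members and lists (T cell receptor, cytotoxic, homing, epithelial partner, mast cell, basophil, innate lymphoid, B and plasma cell, myeloid, stromal, epithelial and goblet genes) were chosen with earlier results of these data known. Named genes are all 10 members, the 3 highest genes of each list and any called against its list in Si8, plus the 5 genes most like Cd3e, Gzma and Mcpt2. The result of 1 gene of the innate lymphoid list is not reported here. Other list genes named were chosen after their values were seen. The labels name no separate animals, so p-values reflect the spread of these libraries alone, and that spread may be technical. The fit was tested on simulated data.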

Additional observations from a re-analysis of the deposited data

Results flagged for a closer look

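The goblet effect on Itgae differed between the regions by −3.37 on the log2 scale (Si8 minus DC, edgeR interaction, adjusted p = 6.2e-07). Itgae was lower in all 4 Si8 goblet libraries than in every Si8 other library, and its DC sorts overlapped. No library stood apart by Dixon's test in the groups of the 10 transcripts with at least 10 counts.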

How the results depend on the processing

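The count of members called was 10 for Si8 goblet against Si8 other and for Si8 other against DC other under every alternative run, or 9 of 9 features with Mcpt1 and Mcpt2 summed. In DC, edgeR's fit of the 2 DC groups called 0, also 0 at an unadjusted p under 0.05, because its filter left only Itgae to test. Without the filter, an alternative chosen after seeing the data, it called 6, as did DESeq2's Wald test. For the difference of the goblet effect, DESeq2 called 5, and leaving out 1 library gave 1 to 3: 3 without Si8 other S3 and 2 without Si8 goblet S4. The share of all genes called under these alternatives is not given here. A rise in members called thus cannot be told apart from a rise over all genes. The interaction of Gzma, not called, changed sign in DESeq2 (−0.96) and ran from −0.038 (without DC other S17) to 0.63 when libraries were left out. Each cause was not tested. No other member changed sign. In DC several values rest on 3 counts or fewer in a group. No paired analysis was possible because the labels give no replicate number shared between groups.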

Other observations

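Kit, the stem cell factor receptor, was 6.88-fold higher in the Si8 goblet sort and 27.7-fold higher in the DC goblet sort, where it reached 231 ± 8.01 CPM (edgeR, adjusted p = 2.6e-13 and 5.8e-16). Which cell type carried these Kit reads was not tested. Cma1, a mast cell chymase gene, had 516 counts in the DC goblet sort and 8 in the DC other sort (57.1-fold, adjusted p = 2.8e-10). In Si8, Cma1 had 4 counts in the other sort and 2 in the goblet sort. The group with the most Cma1 was thus one in which Mcpt2 had 1 count and Cpa3 2.

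T cell receptor chains varied between the Si8 other libraries. Trdc, the constant gene of the delta chain, gave 5.50, 2.46, 3.05 and 1.69 CPM in S1, S3, S5 and S7, and Trac, that of the alpha chain, 6.02, 5.36, 4.78 and 3.82. Counts of Trac over Trdc were 1.09 in S1 (95% exact counting interval 0.877 to 1.37), 2.17 in S3 (1.70 to 2.79), 1.56 in S5 (1.2 to 2.05) and 2.27 in S7 (1.62 to 3.21). S1, the library with the most Gzmb, had the lowest ratio, and a link between these was not tested. The gamma chain constant genes did not all follow Trdc. Tcrg-C2 was nearly level at 6.75, 6.51, 6.27 and 5.38 CPM in S1, S3, S5 and S7. Tcrg-C1 was highest in S1 and spanned 1.94-fold, and Tcrg-C4 was highest in S3.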
